A study of Homo sapiens with 4 samples.

Results

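Of the genes that carry fatty acids and ketone bodies into mitochondrial oxidation, 8 were followed through the H3K27ac peak lists of K562, a human erythroleukaemia line. The genes were chosen by name, out of 20149 annotated protein-coding genes, with earlier results of these data known: BDH1, OXCT1 and ACAT1 for the use of ketone bodies, CPT1A, ACADM, HADHA and HADHB for fatty acid oxidation, and SLC16A1 for transport. All peaks that touched a gene body extended by 10 kb at both ends were taken, which gave 11 peaks in TFAM hairpin 1 cells, 16 in TFAM hairpin 2 cells and 12 in control cells, out of 23819 peaks listed for hairpin 1, 27007 for hairpin 2 and 23413 for control cells. The libraries came from K562 cells with an shRNA against TFAM (hairpin 1 or hairpin 2) or with a non-targeting shRNA (control). TFAM is a mitochondrial transcription factor that also coats the organelle's DNA. Whether the shRNA lines were clones or pools is not stated in the labels. Each condition had 1 H3K27ac library, so nothing here has a spread between replicates or a p-value, and the differences compare these libraries and not the conditions. All groups share the cell line, the serum-containing medium and the antibody, and the series asked how H3K27ac is distributed when TFAM is depleted in erythroid cells.

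Ketone bodies are made in the liver from acetyl-CoA and burnt in other tissues. BDH1 interconverts beta-hydroxybutyrate and acetoacetate, OXCT1 activates acetoacetate with coenzyme A from succinyl-CoA, and ACAT1 splits the product into acetyl-CoA. Long-chain fatty acids enter mitochondria through CPT1A, the rate-limiting step, and are shortened by acyl-CoA dehydrogenases such as ACADM, the medium-chain enzyme, and by the trifunctional protein, whose alpha and beta subunits are HADHA and HADHB. SLC16A1 (MCT1) moves lactate, pyruvate and ketone bodies across the plasma membrane. H3K27ac, the acetylation of lysine 27 on histone H3, marks active promoters and enhancers, and its acetyl group comes from acetyl-CoA.

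The DNA before the start sites of 5 members is shown so that the unmarked promoter can be read beside marked ones of different shape. Each is the 250 bases before a canonical start site, read from the hg19 sequence in the direction of the gene. BDH1 had no promoter peak, OXCT1 had the narrowest one in control and hairpin 1 cells, HADHA and HADHB share one between their start sites, CPT1A has a peak that lies almost wholly downstream of its start, and SLC16A1 had the widest one in hairpin 2 cells. Capitals mark matches on either strand to any of 7 motifs. The GC box is GGGCGG and the CCAAT box CCAAT. The core searched for NRF1 was CGCATGC. For ETS factors it was CCGGAAG. The E-box was searched as CACGTG. The TATA box was TATAAA. The PPAR repeat, which PPAR and RXR bind together, was a pair of AGGTCA copies with 1 base between them. Overlapping matches run together. The stretches lie at chr3:197282840-197283089 on the minus strand (BDH1), chr5:41870528-41870777 on the minus strand (OXCT1), chr2:26467557-26467806 on the plus strand (HADHB), chr11:68609385-68609634 on the minus strand (CPT1A) and chr1:113498819-113499068 on the minus strand (SLC16A1).
BDH1: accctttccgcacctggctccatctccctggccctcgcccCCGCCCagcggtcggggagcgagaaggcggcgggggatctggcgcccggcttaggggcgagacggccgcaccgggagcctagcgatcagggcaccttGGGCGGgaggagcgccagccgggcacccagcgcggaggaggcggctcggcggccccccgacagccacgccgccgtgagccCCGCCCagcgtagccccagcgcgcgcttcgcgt
OXCT1: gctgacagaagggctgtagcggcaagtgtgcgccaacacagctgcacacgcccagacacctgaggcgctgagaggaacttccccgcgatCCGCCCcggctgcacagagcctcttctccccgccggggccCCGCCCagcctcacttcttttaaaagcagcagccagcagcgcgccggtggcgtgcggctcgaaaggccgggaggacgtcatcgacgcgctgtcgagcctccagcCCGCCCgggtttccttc
HADHB: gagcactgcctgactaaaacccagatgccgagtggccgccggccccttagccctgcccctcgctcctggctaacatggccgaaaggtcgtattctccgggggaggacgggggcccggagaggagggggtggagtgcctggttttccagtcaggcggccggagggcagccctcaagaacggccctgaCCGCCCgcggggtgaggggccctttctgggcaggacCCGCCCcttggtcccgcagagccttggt
CPT1A: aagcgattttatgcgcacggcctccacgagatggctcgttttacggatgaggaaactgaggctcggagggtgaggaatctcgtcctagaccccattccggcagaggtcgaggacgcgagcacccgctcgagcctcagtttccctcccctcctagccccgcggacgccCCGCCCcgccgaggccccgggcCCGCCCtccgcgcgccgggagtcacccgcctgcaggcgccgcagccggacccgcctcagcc
SLC16A1: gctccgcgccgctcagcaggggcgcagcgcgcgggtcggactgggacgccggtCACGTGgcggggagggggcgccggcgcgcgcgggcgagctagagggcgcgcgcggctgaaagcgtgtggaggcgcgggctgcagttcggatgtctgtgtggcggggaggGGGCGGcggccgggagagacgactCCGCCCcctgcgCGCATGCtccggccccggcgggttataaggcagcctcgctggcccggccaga

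All 8 members held a GC box in these 250 bases, as did 58.6% of all 20149 coding promoters and 74.2% of the 10143 with a promoter peak in every list. BDH1, which was unmarked, held 3 of them, the same number as OXCT1 and ACAT1, while ACADM held 4 and HADHA 1. The windows of HADHA and HADHB overlap, and the GC box of HADHA is also 1 of those of HADHB, so that site is counted for both genes. SLC16A1 was the only member with an E-box, found in 7.86% of coding promoters. An NRF1 core stood in ACADM and SLC16A1 and in 4.57% of coding promoters, and ACAT1 alone of the members had a CCAAT box (2 matches; 34.2% of coding promoters). None of the 8 held the ETS core (11.8%), the TATA box (9.40%) or the PPAR repeat (0.0298%) in this window. These matches describe letters in a window and are not binding sites.

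A promoter was taken as the canonical start site with 1 kb to either side. By that measure 7 of the 8 genes had a promoter peak in every library, and BDH1 had one in none. Across all coding genes, 50.3% had a promoter peak in all 3 lists and 41.4% in no list. Gains in both hairpins concerned 1.53% of coding genes and losses in both 0.829%, and none of the 8 was among either. HADHA and HADHB share a single peak, so the 7 marked genes stand for 6 peaks.

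The libraries as a whole covered 54.4 Mb in hairpin 1, 61.9 Mb in hairpin 2 and 52.1 Mb in control cells, with no list holding a peak over 8841 bp. TFAM had a promoter peak in each list (2787 bp in hairpin 1, 2447 bp in hairpin 2 and 2983 bp in control cells), which does not measure a knockdown that acts on the transcript. Of 11 erythroid markers of K562, 5 had a promoter peak in every list and 4, the globin genes HBE1, HBG1 and HBG2 and the regulator GATA1, had none. HBG1 and HBG2 are near-identical copies, and reads were kept only where they had a single match. The listed spans of the 11 summed to 31297 bp in hairpin 1, 26775 bp in hairpin 2 and 37576 bp in control cells. TAL1 and GYPC, the remaining markers, had peaks in hairpin 1 and control cells and none in hairpin 2 cells, where they count as 0 bp. TAL1 spanned 5523 bp in hairpin 1 and 5929 bp in control cells, and GYPC 7034 and 6366 bp in the same lists. Whether domains wider than the widest listed peak are missing from the lists was not tested. An absent peak at HBE1, HBG1, HBG2, GATA1, TAL1 or GYPC does not show an unmarked promoter. Neither read depth nor the caller's settings could be read from the labels or files. Over the 5 markers with a peak in every list, a sum added after seeing the data, the spans came to 18740 bp in hairpin 1, 26775 bp in hairpin 2 and 25281 bp in control cells. None of 7 hepatocyte markers or 6 cardiac and skeletal muscle markers, such as ALB and MYH7, had a promoter peak in any library. Of 5 lymphoid markers, CD3D and CD79A had one in hairpin 1 cells alone, with a summed span of 4670 bp, against 0 bp in hairpin 2 and 0 bp in control cells. BDH2 and SLC27A6, from the pathway lists described below, also had a promoter peak in hairpin 1 cells alone. The share of all coding genes with such a peak is not given here, so the lymphoid count has no background beside it. The part of these markers in the members' values was not tested.

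BDH1, on chromosome 3 (197236654 to 197300194, minus strand), had no peak within 1 kb of any of its 4 basic start sites in any library. The peak nearest to its canonical start lay 36.3 kb away in hairpin 1 cells, 21.6 kb in hairpin 2 cells and 36.3 kb in control cells. Its start region was rich in G+C, with 66.7% over 500 bp to either side. Of the 5728 coding genes at least as rich, 25.9% had no promoter peak in any list. The peaks that touched the BDH1 window were found in hairpin 2 cells alone. One, of 865 bp, lay in intron 6 of 7 (chromosome 3, 197243351 to 197244215) at score percentile 12, and the other, of 1102 bp, lay 4263 bp before the 5' end of the gene (197304457 to 197305558) at score percentile 23.2. A score percentile ranks a peak by the authors' score within its own list, from 0 for the weakest to 100 for the strongest; ranks in lists of different length show no change. An absent peak is not evidence of an unacetylated promoter, because neither read depth nor the caller's settings could be read from the labels or files.

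OXCT1, on chromosome 5 (41730167 to 41870527, minus strand), had its promoter peak over exon 1 and the start of intron 1. It spanned 2377 bp in hairpin 1 cells, 2706 bp in hairpin 2 cells and 1923 bp in control cells. The hairpin libraries were thus both wider than the control, by log2 ratios of 0.31 in hairpin 1 and 0.49 in hairpin 2 cells. The peak reached 1080 bp upstream and 1296 bp downstream of the start in hairpin 1 cells, 933 and 1772 bp in hairpin 2 cells, and 739 and 1183 bp in control cells. Both edges lay farther out in each hairpin library than in the control. Over all 10143 marked genes the edges differed from control by medians of 175 bp upstream and 219 bp downstream in hairpin 1 cells. In hairpin 2 cells these medians were 177 and 237 bp. Of the OXCT1 differences, only the downstream one in hairpin 1 cells lay below its median. Its score percentiles were 89.7 in the hairpin 1 list, 81.0 in the hairpin 2 list and 56.8 in the control list. Among the 6 marked promoters it stood in second place in both hairpin lists and last in the control list. Its 3 other basic start sites, 26768 to 76045 bp downstream, had no peak within 1 kb in any library.

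ACAT1, on chromosome 11 (107987422 to 108018330, plus strand), differed little. Its promoter peak over exon 1 and intron 1 spanned 2420 bp in hairpin 1 cells, 2691 bp in hairpin 2 cells and 2608 bp in control cells, and the control value fell between those of the hairpins. Score percentiles were 65.1 in hairpin 1, 67.3 in hairpin 2 and 61.1 in control cells. SLC16A1 was the other peak whose ratios had opposite signs in the hairpins, as 31.9% of marked genes did. A start site of ACAT1, 4872 bp before the canonical one, was unmarked in every library.

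CPT1A, on chromosome 11 (68522088 to 68611878, minus strand), had a promoter peak of 4313 bp in hairpin 1 cells, 4502 bp in hairpin 2 cells and 3933 bp in control cells. Both hairpin values were above the control one, by log2 ratios of 0.13 in hairpin 1 and 0.19 in hairpin 2 cells. The peak was strongly one-sided: it ended 269 bp upstream of the start in hairpin 1 cells, 409 bp in hairpin 2 cells and 133 bp in control cells, while it ran 4043 bp in hairpin 1, 4092 bp in hairpin 2 and 3799 bp in control cells into exon 1 and intron 1. Its start sites farther inside the gene, 26413 and 42648 bp downstream, had no peak. The share of its length downstream was 93.8% in hairpin 1, 90.9% in hairpin 2 and 96.6% in control cells, against medians of 55.7%, 58.5% and 55.9% in the same lists over the 10143 marked genes. In all 3 lists the upstream edge lay under 500 bp from the start, as it did in 7.49% of marked genes. Score percentiles were 71.6 in hairpin 1, 86.4 in hairpin 2 and 85.3 in control cells, the highest of the 6 promoters in the hairpin 2 and control lists.

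ACADM, on chromosome 1 (76190116 to 76253260, plus strand), had a promoter peak of 4321 bp in hairpin 1 cells, 4985 bp in hairpin 2 cells and 5103 bp in control cells. It covered exon 1 and ran into intron 1, and the control peak, which ended farthest downstream, reached exon 2. The hairpin libraries were both narrower, with log2 ratios of -0.24 in hairpin 1 and -0.03 in hairpin 2 cells. The upstream edge lay farther out all the same, at 1763 bp in hairpin 1 and 1504 bp in hairpin 2 cells, against 1334 bp in control cells. The downstream edge lay closer in, at 2557 bp in hairpin 1 and 3480 bp in hairpin 2 cells, against 3768 bp in control cells. Of these differences from control, only the upstream one in hairpin 2 cells lay below its median over all marked genes, 177 bp. Score percentiles were 71.6 in hairpin 1, 78.7 in hairpin 2 and 70.6 in control cells.

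HADHA (chromosome 2, 26413504 to 26467540, minus strand) and HADHB (26466038 to 26513333, plus strand) are transcribed away from each other from start sites 307 bp apart. They are one of 939 divergent pairs of coding genes with starts within 1 kb. The peak over both starts was the widest promoter peak of the set in hairpin 1 and control cells. It spanned 5681 bp in hairpin 1 cells, 5331 bp in hairpin 2 cells and 5855 bp in control cells, and thus covered exon 1 and part of intron 1 of both genes in every library. Both hairpin values were below the control one, by log2 ratios of -0.04 in hairpin 1 and -0.14 in hairpin 2 cells. From the HADHA start the peak reached 2844 bp in hairpin 1, 2657 bp in hairpin 2 and 2795 bp in control cells into HADHA, and from the HADHB start 2529 bp in hairpin 1, 2366 bp in hairpin 2 and 2752 bp in control cells into HADHB. Its score percentiles were 67.0 in hairpin 1, 76.9 in hairpin 2 and 65.6 in control cells. A downstream start of HADHB, 16082 bp from the canonical one, had no peak in any library.

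SLC16A1, on chromosome 1 (113454469 to 113500215, minus strand), had the largest difference between libraries of the 6 peaks. Its promoter peak spanned 4393 bp in hairpin 1 cells, 7193 bp in hairpin 2 cells and 4711 bp in control cells. Hairpin 1 and control lay close together, and hairpin 2 stood apart from both. The log2 ratio to control was -0.10 in hairpin 1 and 0.61 in hairpin 2 cells, and the hairpin 2 ratio was the only one of the 6 peaks past 1.5-fold in either hairpin library. The added length lay within intron 1, since the downstream edge stood at 2132 bp in hairpin 1 cells, 5084 bp in hairpin 2 cells and 2703 bp in control cells, while the upstream edges were 2260 bp in hairpin 1, 2108 bp in hairpin 2 and 2007 bp in control cells. Score percentiles were 90.4 in hairpin 1, 48.4 in hairpin 2 and 75 in control cells, the highest of the 6 promoters in the hairpin 1 list and the lowest in the hairpin 2 list. Wide peaks ranked lower than those of middle width in each list as a whole: peaks over 6000 bp had median percentiles of 39.3 in hairpin 1, 44.4 in hairpin 2 and 38.7 in control cells, and peaks of 2000 to 4000 bp had 72.6 in hairpin 1, 72.6 in hairpin 2 and 73.1 in control cells. The part of width in the SLC16A1 rank was not tested.

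**Figure D1:**
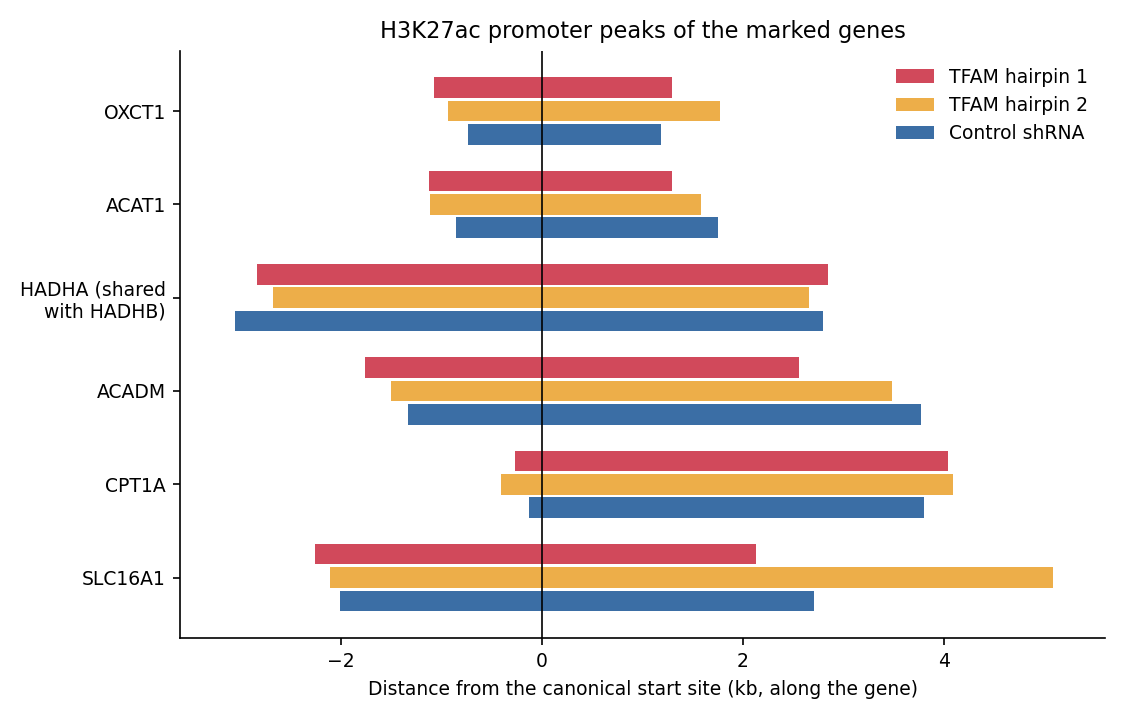
Extent of the promoter peak of each marked gene in kb from its canonical start site, drawn along the gene, with hairpin 1, hairpin 2 and control cells from top to bottom. CPT1A reaches at most 409 bp upstream in any library, and SLC16A1 reaches 5084 bp downstream in hairpin 2 cells, against 2703 bp in control cells.

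**Figure D2:**
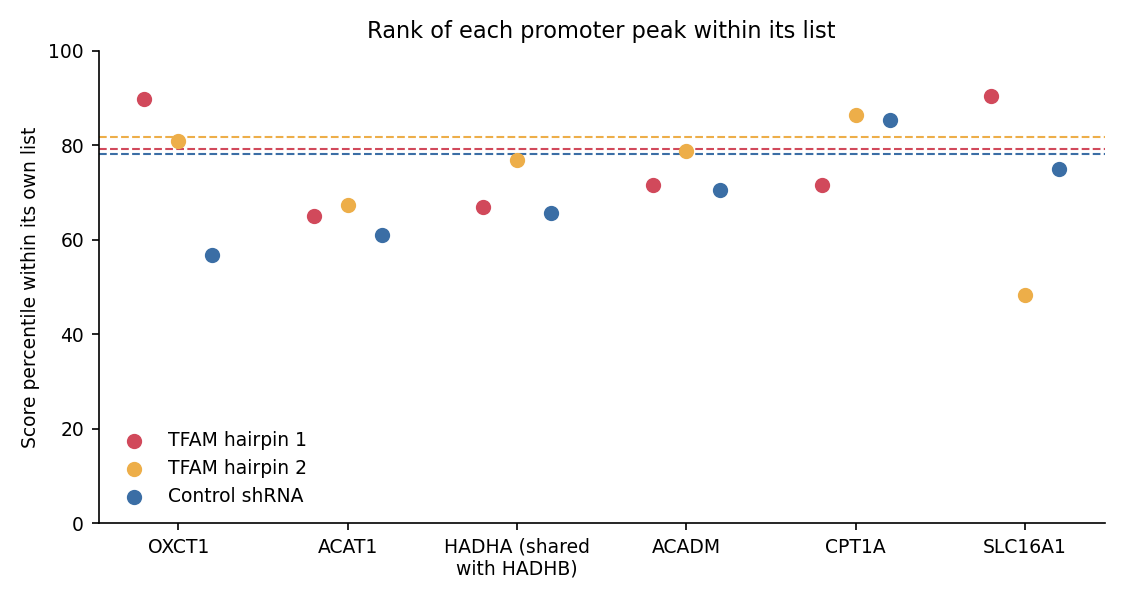
Score percentile of each promoter peak within its own list, with dashed lines at the median of all 10143 genes marked in every list (79.3 in hairpin 1, 81.7 in hairpin 2 and 78.1 in control cells). OXCT1 is the lowest of the 6 in control cells at 56.8, and SLC16A1 the lowest in hairpin 2 cells at 48.4.

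The promoter spans of the set were set beside those of all coding genes marked in every list. The HADHA and HADHB, ACADM, CPT1A and SLC16A1 peaks were wider than the median marked gene in every list. OXCT1 was narrower in every list, and ACAT1 was narrower in both hairpins and slightly wider in control cells. The median over the 6 peaks was 4317 bp in hairpin 1, 4744 bp in hairpin 2 and 4322 bp in control cells, against 2654 bp in hairpin 1, 2809 bp in hairpin 2 and 2549 bp in control cells over all 10143 genes. Their median score percentiles were 71.6 in hairpin 1, 77.8 in hairpin 2 and 68.1 in control cells, against 79.3, 81.7 and 78.1 in the same lists for all marked genes. The median log2 ratio to control was -0.07 in hairpin 1 and 0.12 in hairpin 2 cells for the 6 peaks, and 0.04 and 0.11 for all marked genes. In hairpin 1 cells 2 of the 6 were wider than in control cells and 4 narrower, and in hairpin 2 cells 4 were wider and 2 narrower. OXCT1 and CPT1A were the peaks wider in both hairpins, as were 45.1% of marked genes, and ACADM and the HADHA and HADHB peak were narrower in both, as were 22.7%.

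No member passed 1.5-fold in both hairpins, where 4.21% of marked genes were past it upwards and 0.670% downwards. SLC16A1 passed it in hairpin 2 cells, as did 11.0% of marked genes, at 1.53-fold. Relative to the median of all marked genes in that library, its log2 ratio was 0.50, under 1.5-fold. Any pair of the 3 libraries differed at a typical marked promoter by a median of 0.20 in absolute log2 ratio, hairpin 2 against hairpin 1 included. OXCT1 in both hairpins, ACADM in hairpin 1 and SLC16A1 in hairpin 2 cells exceeded that value, and each other ratio of the 6 peaks lay below it. Regions richer in G+C had larger ratios in the whole set. Of 5 groups of marked genes by G+C, the richest had medians of 0.12 in hairpin 1 and 0.16 in hairpin 2 cells, and the poorest had -0.03 and 0.04 for the same libraries. OXCT1, ACADM, HADHA and HADHB fell in the middle group, where the medians were 0.07 in hairpin 1 and 0.13 in hairpin 2 cells. SLC16A1 fell in the next richer one, with medians of 0.07 and 0.14 for the same libraries, and ACAT1 in the next poorer one, with 0.01 and 0.10. CPT1A fell in the richest group, and its ratios of 0.13 in hairpin 1 and 0.19 in hairpin 2 cells lay close to that group's medians. The part of G+C in the members' ratios was not tested.

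**Figure D3:**
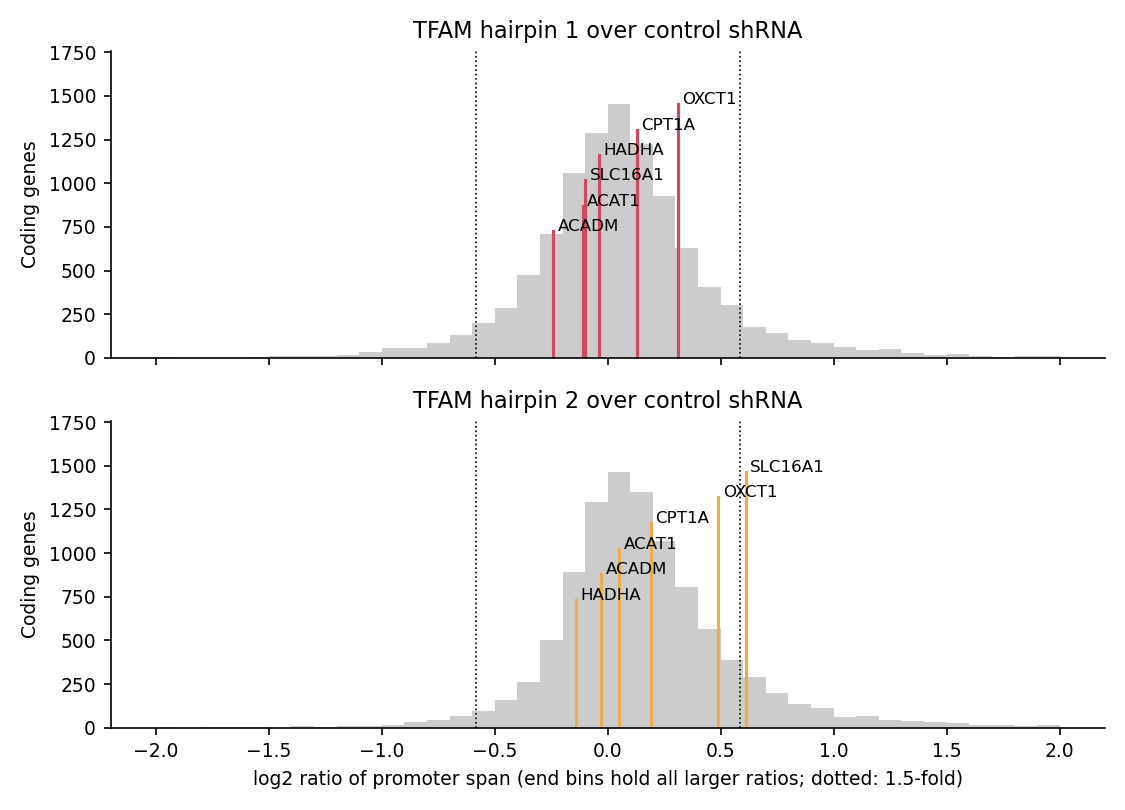
Number of coding genes (grey, marked in every list) by log2 ratio of promoter span, hairpin 1 over control above and hairpin 2 over control below, with the 6 member peaks as coloured lines and 1.5-fold as dotted lines. HADHA stands for the peak shared with HADHB. SLC16A1 at 0.61 in hairpin 2 cells is the only member line beyond a dotted line.

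Away from promoters, 6 of the 10 regions in the windows were in hairpin 2 cells alone, and their peaks were weak. The 7 merged windows, in which those of HADHA and HADHB are one, covered 673324 bp and held 19 joined regions, of which 9 touched a coding promoter and 10 did not. Of the 10 distal regions, 1 was in every list, 6 were in hairpin 2 cells alone, 2 in control cells alone and 1 in hairpin 1 and control cells. Over all 23516 distal regions of the genome, 34.1% were in every list and 21.6% in hairpin 2 cells alone. The share in every list was 10.0% of the 10 (exact 95% Clopper-Pearson interval 0.3 to 44.5), an interval that holds the share of the whole genome. The share found in hairpin 2 cells alone was 60.0% of the 10 (interval 26.2 to 87.8, which does not hold 21.6%). That share was singled out after seeing the data. Both intervals cover counting error only. Regions from 1 library per condition are not replicates, so neither interval serves as a test. Those 6 peaks were weak, at score percentiles of 8.3 to 35.6. Of all hairpin 2 peaks at percentiles over 10 and up to 25, 46.2% had no counterpart in either other list, and of those up to 10, 59.6% had none. Of those over 25 and up to 50, where the OXCT1 peak ranked, 23.5% had none. Hairpin 2 also had the longest list; with the lists brought to equal length, a count added after seeing the data, 3 of 7 distal regions (42.9%) were in hairpin 2 cells alone, against 14.7% of all 21321. In the higher-scoring 50% of each list none of the 6 was left, and the 1 distal region that remained was the one shared by every list. With gene bodies alone, 4 of 6 distal regions (66.7%) were in hairpin 2 cells alone, and with 50 kb to either side 8 of 23 (34.8%).

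The 6 hairpin 2 regions included the pair at BDH1. In OXCT1 a peak of 1484 bp overlapped exon 16 of 17 and intron 16 (chromosome 5, 41738082 to 41739565) at percentile 35.6. In CPT1A a peak of 1102 bp covered exon 12 of 19 (chromosome 11, 68547701 to 68548802) at percentile 23.3. A peak of 1047 bp lay in intron 6 of HADHB (chromosome 2, 26496772 to 26497818) at percentile 8.3. The last, of 630 bp, lay 802 bp past the 3' end of ACAT1 (chromosome 11, 108019132 to 108019761) at percentile 8.4.

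SLC16A1 had no distal region in the hairpin 2 list. Both regions found in control cells alone lay in its intron 1, at 19.4 kb (chromosome 1, 113477647 to 113479460) and 8.5 kb (113488870 to 113490320) from the start, with score percentiles of 18.1 and 17.3. Of control peaks at percentiles over 10 and up to 25, 26.3% had no counterpart in either hairpin list. Over all 23516 distal regions, 9.49% were in control cells alone and 5.25% in hairpin 1 and control cells. A further region 6718 bp past the 3' end of the gene (113445983 to 113447751) had a peak of 1015 bp in hairpin 1 cells, none in hairpin 2 cells and one of 1769 bp in control cells, at percentiles 13.4 in the hairpin 1 list and 40 in the control list. The SLC16A1 window thus held 2 peaks in hairpin 1 cells, 1 in hairpin 2 cells and 4 in control cells. Covered sequence there was 5408 bp in hairpin 1, 7193 bp in hairpin 2 and 9745 bp in control cells, lower in both hairpins, with log2 ratios of -0.85 in hairpin 1 and -0.44 in hairpin 2 cells. Past 1.5-fold downwards were 8.83% of 13302 gene windows covered in every list in hairpin 1 cells, SLC16A1 among them, and 5.28% in hairpin 2 cells, without SLC16A1.

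The distal region shared by all lists lay beyond the 3' end of HADHA, inside the neighbouring gene GAREM2 (chromosome 2, 26407045 to 26408900), over exon 4 of 6. It was 1856 bp wide in hairpin 1 cells, 1602 bp in hairpin 2 cells and 1148 bp in control cells, at percentiles 82.3 in hairpin 1, 83.2 in hairpin 2 and 72.6 in control cells. Promoters of neighbours made up the rest. The TESMIN promoter, past the 3' end of CPT1A (chromosome 11, 68517186 to 68519395), had peaks of 2210 bp in hairpin 1, 1715 bp in hairpin 2 and 1344 bp in control cells. The RABGGTB promoter, at the 3' end of ACADM (chromosome 1, 76249147 to 76257201), had peaks of 5083 bp in hairpin 1, 7737 bp in hairpin 2 and 7814 bp in control cells, so that hairpin 1 was the narrow library. The MSH4 promoter, 8875 bp past ACADM, had weak peaks in hairpin 1 (709 bp, percentile 10.4) and hairpin 2 cells (755 bp, percentile 30.4) and none in control cells. Values of these neighbours enter the window sums of the members beside them.

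**Figure D4:**
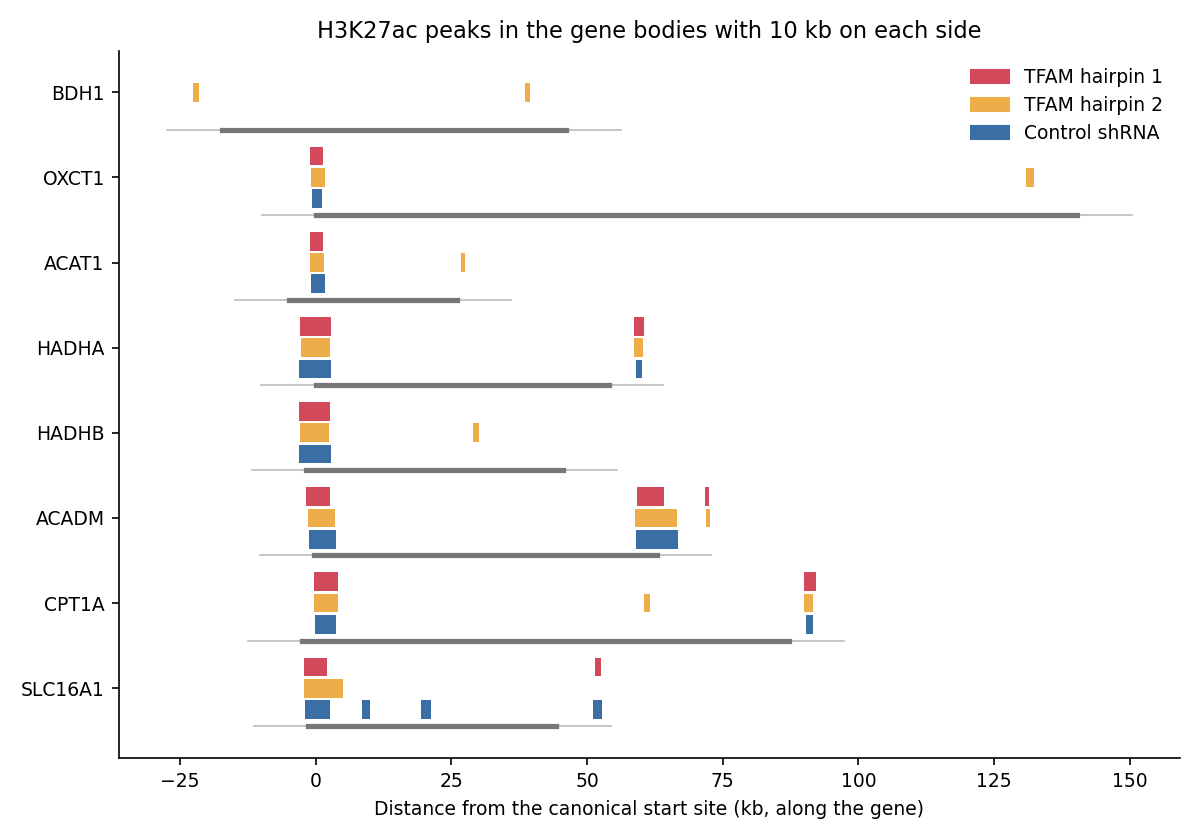
Peaks in each gene body (thick grey line) and 10 kb at either end (thin line) in kb from the canonical start site, along the gene, with hairpin 1, hairpin 2 and control cells from top to bottom for each gene. Peaks found in hairpin 2 cells alone lie at BDH1, OXCT1, ACAT1, HADHB and CPT1A, and those in control cells alone at 2 places in SLC16A1.

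Summed over the 7 windows, peaks covered 34378 bp in hairpin 1 cells, 45447 bp in hairpin 2 cells and 39473 bp in control cells, or 5.11%, 6.75% and 5.86% of the windows. The ratio to control was 0.87 in hairpin 1 and 1.15 in hairpin 2 cells, where the whole lists had 1.04 for hairpin 1 and 1.19 for hairpin 2. In the higher-scoring 50% of each list both ratios turned, to 1.23 in hairpin 1 and 0.88 in hairpin 2 cells. Windows of single members differed widely. OXCT1 had 2377 bp in hairpin 1, 4190 bp in hairpin 2 and 1923 bp in control cells, the hairpin 2 value being past 1.5-fold upwards, as in 21.1% of gene windows. CPT1A had 6523 bp in hairpin 1, 7319 bp in hairpin 2 and 5277 bp in control cells, with log2 ratios of 0.31 in hairpin 1 and 0.47 in hairpin 2 cells, and ACADM had 10113 bp in hairpin 1, 13477 bp in hairpin 2 and 12917 bp in control cells, with -0.35 in hairpin 1 and 0.06 in hairpin 2 cells. Over the 7 members with coverage in every list the median log2 ratio was -0.04 in hairpin 1 and 0.12 in hairpin 2 cells, against 0.09 and 0.19 for all gene windows. HADHA and HADHB were counted apart in these medians, although their windows overlap and share a peak.

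Other genes of the same pathways were taken from lists of 76 genes. A promoter peak was present in every library for 52 of them (68.4%, exact 95% interval 56.7 to 78.6), against 50.3% of coding genes, and 18 had none in any library. The interval covers counting error only and serves as no test. The lists were chosen by hand with earlier results of these data known, and genes are not replicates. The promoter span was past 1.5-fold upwards in 6 genes in hairpin 1 and 7 in hairpin 2 cells, and downwards in 1 and 0, where 7.91% and 11.0% of all marked genes were past it upwards and 4.46% and 2.28% downwards. The median log2 ratio of the 52 was 0.06 in hairpin 1 and 0.23 in hairpin 2 cells, beside 0.04 and 0.11 over all marked genes.

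The mitochondrial beta-oxidation enzymes had promoter peaks in every library in 15 of 16 genes, and the exception, ACADL, the long-chain acyl-CoA dehydrogenase, had none. ACADVL, the very-long-chain enzyme, passed 1.5-fold in both hairpins, with 4730 bp in hairpin 1, 7366 bp in hairpin 2 and 2677 bp in control cells. Its rank went the other way, at score percentiles of 64.3 in hairpin 1, 26.8 in hairpin 2 and 85.6 in control cells. ACAD10, an acyl-CoA dehydrogenase family member, and ECI1, which shifts double bonds of unsaturated chains, had the highest control percentiles of that list, 98.8 and 97.0. ECI1 spanned 2922 bp in hairpin 1, 2687 bp in hairpin 2 and 3092 bp in control cells. All 3 genes that pass electrons from acyl-CoA to the respiratory chain were marked. ETFB, a subunit of the electron transfer flavoprotein, spanned 4968 bp in hairpin 1, 7186 bp in hairpin 2 and 4538 bp in control cells. Its score percentiles were 90.6 in hairpin 1, 57.6 in hairpin 2 and 93.8 in control cells. ETFDH, the oxidoreductase that accepts electrons from the flavoprotein, had 3146 bp in hairpin 1, 3245 bp in hairpin 2 and 3143 bp in control cells.

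Of the carnitine shuttle 5 of 8 genes were marked in every library. CPT2, the inner-membrane partner of CPT1A, spanned 3574 bp in hairpin 1, 2633 bp in hairpin 2 and 1862 bp in control cells, and CRAT, carnitine acetyltransferase, spanned 3136 bp in hairpin 1, 3718 bp in hairpin 2 and 2766 bp in control cells. Both were wider in each hairpin library than in the control, CPT2 past 1.5-fold in hairpin 1 cells alone. The muscle and brain forms CPT1B and CPT1C and the mitochondrial acetyl-CoA carboxylase ACACB, whose product inhibits CPT1A, had no promoter peak in any library. They were chosen for mention after their values were seen.

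Ketone body genes outside the set were marked in every library in 3 of 6 cases. ACAT2, the cytosolic thiolase, spanned 3083 bp in hairpin 1, 3551 bp in hairpin 2 and 3033 bp in control cells. OXCT2, the testis form of OXCT1, had no promoter peak in any library (chosen after its values were seen). Of 7 genes of monocarboxylate transport 3 were marked in every library and 4 in none. SLC16A3 (MCT4), a lactate exporter, spanned 3946 bp in hairpin 1, 3154 bp in hairpin 2 and 2690 bp in control cells, and SLC16A6 1909 bp in hairpin 1, 1840 bp in hairpin 2 and 2280 bp in control cells. BSG, the chaperone that brings SLC16A1 to the plasma membrane, had 5379 bp in hairpin 1, 7132 bp in hairpin 2 and 5035 bp in control cells (chosen after its values were seen). Its score percentiles were 80.1 in hairpin 1, 61.4 in hairpin 2 and 71.5 in control cells.

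Fatty acid uptake and activation had 7 of 14 genes marked in every library. SLC27A5, a bile acid and very-long-chain acyl-CoA ligase of liver, was the one gene of the 76 with a promoter peak in both hairpins and not in control cells, at 2479 bp and percentile 66.5 in hairpin 1 cells and 2795 bp and percentile 27.8 in hairpin 2 cells. Among all coding genes, 1.53% were gained in this way, so 1 of 76 lies near that share. SLC27A4, a fatty acid transport protein, spanned 2118 bp in hairpin 1, 1835 bp in hairpin 2 and 2047 bp in control cells, and ACSL3, an acyl-CoA synthetase, 2328 bp in hairpin 1, 2826 bp in hairpin 2 and 2864 bp in control cells. Peroxisomal beta-oxidation had 9 of 12 genes marked in every library. SCP2, a thiolase and lipid carrier, spanned 2055 bp in hairpin 1, 1756 bp in hairpin 2 and 1008 bp in control cells. SCP2 and ACADVL were among the 3 of the 52 past 1.5-fold upwards in both hairpins, and none was past it downwards, where the shares of all marked genes were 4.21% and 0.670%. ACAA1, a peroxisomal thiolase, spanned 4180 bp in hairpin 1, 4221 bp in hairpin 2 and 3892 bp in control cells.

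Transcriptional regulators of these genes were marked in every library in 7 of 10 cases. NRF1, an activator of nuclear genes for mitochondria, ranked at percentile 99.8 in hairpin 1, 99.6 in hairpin 2 and 99.7 in control cells, over 2916 bp in hairpin 1, 2854 bp in hairpin 2 and 2960 bp in control cells. ESRRA, a nuclear receptor that acts with PGC-1 coactivators, spanned 4168 bp in hairpin 1, 4330 bp in hairpin 2 and 3922 bp in control cells. PPARA, the main fatty acid sensor of liver, spanned 2689 bp in hairpin 1, 2261 bp in hairpin 2 and 2016 bp in control cells, while PPARGC1A had no promoter peak in any library (both chosen after their values were seen).

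**Figure D5:**
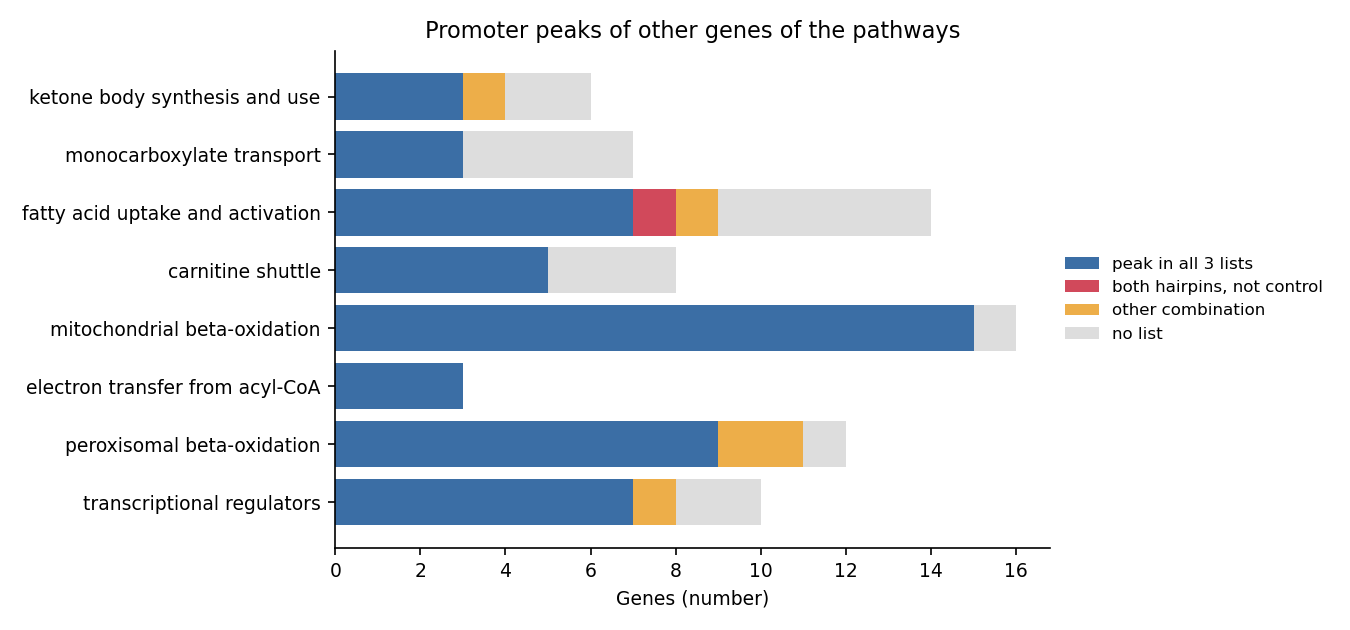
Number of genes in each pathway list by the libraries with a promoter peak. Mitochondrial beta-oxidation has 15 of 16 genes marked in every list, monocarboxylate transport 3 of 7, and the only gene marked in both hairpins and not in control cells lies in fatty acid uptake and activation. Of all coding genes 1.53% were marked in that way.

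Genes with the most similar rank across the 3 libraries were found by the largest difference in score percentile from a member. For OXCT1 the closest was ACSL4, an acyl-CoA synthetase, at 88.0 in hairpin 1, 79.3 in hairpin 2 and 58.7 in control cells, with a largest difference of 1.93 points. Only 8 genes came within 5 points of OXCT1. For SLC16A1 the closest and only gene within 5 points was XPO7, at 86.7 in hairpin 1, 53.2 in hairpin 2 and 79.6 in control cells. The other members had 152 to 289 genes within 5 points, the closest being ETV6 for ACAT1, RGPD2 for HADHA and HADHB, DCBLD2 for ACADM and RAB32 for CPT1A. RGPD2 belongs to a family of near-identical copies, so its reads may not be assigned to it safely.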

How the data were processed

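H3K27ac ChIP-seq peak lists of 3 K562 libraries were used, 1 each for TFAM hairpin 1, TFAM hairpin 2 and control shRNA, grouped by sample title. Reads with a single match in hg19 were kept, per the labels' protocols; Bowtie 0.12.7 and Picard are named without roles, per the submitters' processing notes. The authors deposited start, end and a score for each peak, with MACS in the peak names, 1 list per library. The caller's version, threshold, use of input and the depth are not given in the sources used here. Scores were turned into percentiles within a list. The input was not analysed here. Peak ends lay inside the GRCh37 chromosomes. Gene models were those of GENCODE 44 lifted to GRCh37, and promoter sequence was read from that genome. A promoter was the canonical start with 1 kb to either side, a span the summed width of peaks over it. Named were all members, pathway genes gained, lost or past 1.5-fold in both hairpins, the 2 of each list with the highest control percentile, and the gene closest in rank to each member; some of these genes are not reported here. Members and lists were chosen with earlier results of these data known. The counting was tested on simulated data. Positions are 1-based. Tables were computed in Python 3.11.15 with pandas 2.3.3 and numpy 2.4.6, intervals with SciPy 1.17.1, and figures drawn with matplotlib 3.10.9.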

Additional observations from a re-analysis of the deposited data

Results flagged for a closer look

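At SLC16A1 the ratios of the hairpin libraries to the same control had opposite signs: the log2 ratio of promoter span was -0.10 in hairpin 1 and 0.61 in hairpin 2 cells. ACAT1 also had opposite signs, -0.11 in hairpin 1 and 0.05 in hairpin 2 cells. Any pair of the libraries differed at marked promoters by a median of 0.20 in absolute log2 ratio. Of these ratios only that of SLC16A1 in hairpin 2 cells exceeded it. Neither difference was tested, since each condition had 1 library, and 31.9% of the 10143 marked genes had ratios of opposite sign.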

How the results depend on the processing

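No paired analysis was possible because each condition had 1 library and no test was run. In the higher-scoring 50% of each list, 6 members instead of 7 were marked in every list, since the hairpin 2 peak of SLC16A1 fell below the middle of its list; the windows held 7 hairpin 2 peaks over 23532 bp, and the ratio of covered sequence to control turned to 1.23 in hairpin 1 and 0.88 in hairpin 2 cells. With gene bodies alone, hairpin 1 had 7 peaks and 0 distal regions were in every list. With 50 kb to either side, hairpin 1 had 23 peaks over 51961 bp, hairpin 2 had 25 peaks, the hairpin 1 ratio turned to 1.06 and 3 distal regions were in every list; both settings change the sequence counted. Counting hairpin 2 alone, 1 member was past 1.5-fold upwards. SLC16A1 in hairpin 2 cells fell to a log2 ratio of 0.50, below 1.5-fold, when the median of all marked genes was taken off. Of the 10 distal regions 1 was left in the higher-scoring 50%, 7 at equal list lengths, 6 with gene bodies alone and 23 with 50 kb. Those in hairpin 2 cells alone were counted under each setting after seeing the data. They numbered 6 of 10 as reported (60.0%, against 21.6% of all distal regions) and 0 of 1 in the higher-scoring 50% (against 23.7%). At equal list lengths, where the list with most peaks is shortened most, they numbered 3 of 7 (42.9%, against 14.7%). With gene bodies alone they numbered 4 of 6 (66.7%) and with 50 kb to either side 8 of 23 (34.8%), both against 21.6%. The other settings left 6. The remaining 61 values of the main results stayed within 1.5 times and kept their direction under the alternatives tried for them. Some could not change: the counts past 1.5-fold in both hairpins were 0 and had to stay 0 at a fold of 2. The absence of a peak is limited by an unknown depth.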
